A study of Homo sapiens with 8 samples.

Results

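The genes described here encode the cytosolic and mitochondrial aminoacyl-tRNA synthetases, the enzymes that join each amino acid to its tRNA. They were taken by name, from a list of 35 gene symbols. A value could be given for 32 of them, among 19775 genes with a value in all: 15 cytosolic genes, 15 mitochondrial genes and 2, GARS1 and KARS1, whose products work in both compartments. The probe sets of MARS1, QARS1 and TARS2 are also annotated to a microRNA, so these 3 genes were given no value. RNA came from 293T cells, an established line of human embryonic kidney origin. The cells were controls or had been treated for 10 h at 10 µM with EerI (eeyarestatin I), with CBU-028 or with 5-NA. Each group had 2 arrays, 8 in all. EerI inhibits endoplasmic reticulum-associated degradation and consists of a nitrofuran-containing part and an aromatic domain. The compound 5-NA is the nitrofuran-containing part alone, and CBU-028 was made as a further compound. Whether solvent was given to the controls is not stated. The sample titles of 5-NA carry a number that belongs to a different compound in the supplement, CBU-029, while every other label names 5-NA.

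Charged tRNA is the substrate of translation, and the nucleus encodes a largely separate synthetase for each compartment. Cytosolic synthetases supply the ribosomes that read nuclear messages. Mitochondrial synthetases are imported and supply the ribosomes that make a few subunits of the respiratory chain. Uncharged tRNA activates the kinase GCN2, which leads to translation of the transcription factor ATF4. Stress in the endoplasmic reticulum reaches ATF4 through another kinase, PERK. Many cytosolic synthetase genes are known ATF4 targets, read through a composite C/EBP-ATF response element in their promoters.

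Values are log2 levels of 1 probe set per gene, the one with the highest mean, and a difference of 1 is a 2-fold change. A gene was called where limma gave a Benjamini-Hochberg adjusted p under 0.05 over all probe sets, with no fold threshold. The median of the arrays lay between 6.89 and 6.93, and the lowest mean of a synthetase gene was 8.48. Mean levels ran from 11.02 (AARS1) to 13.42 (IARS1) for cytosolic genes and from 8.48 (PARS2) to 11.47 (IARS2) for mitochondrial genes. The part of this difference in level in the contrast between compartments was not tested. The shares over all genes given below also include genes with levels under the array medians, where no synthetase gene lay. The 293T markers KRT8, KRT18, VIM and NEFM had mean levels from 9.44 to 13.71, while PAX2, at 6.70, lay below the array medians. Of the blood and B cell markers, PTPRC and MS4A1 had mean levels of 4.63 and 5.45, and CD79A and CD79B of 7.73 and 6.96. Over the synthetase probe sets the SD between duplicates was 0.0233 in control, 0.0416 with EerI, 0.115 with CBU-028 and 0.0839 with 5-NA, and the tests pool this spread. The difference between 3' and 5' probe sets of ACTB, a sign of RNA quality, was 0.0743 to 0.196 on 7 arrays and 0.363 on 5-NA replicate 2. The 28S rRNA probe set read 12.62 to 13.11 on the other arrays and 14.02 and 14.04 on those of 5-NA. For the 18S rRNA probe set it was 11.95 to 12.85 on the other arrays and 12.35 and 12.88 on those of 5-NA. The treatments are described as done in duplicates, and a supplementary legend speaks of a biological replicate without saying whether cultures were separate. The p-values measure the spread between these duplicates, pooled over all groups and drawn by limma toward the spread of all probe sets. A p for EerI against control thus also carries the wider spread with CBU-028 and 5-NA. With 2 arrays a side, the smallest p of an exact permutation test is 0.333. In bulk RNA, a change per cell and a change in the kinds of cells present cannot be told apart.

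The promoters show which of these genes carry the letters of the response element. The motif searched was TGATGNAA, where N is any base, on both strands, from 250 bases before to 50 after each RefSeq start site (GRCh38.p14). It was found for 7 of 16 cytosolic and dual genes with a promoter entry (43.8%) and 1 of 14 mitochondrial genes (7.14%), beside 4.46% of all 27305 genes with an entry. Counted by window, it was in 3.62% of 35116. The sites of the genes that the results turn on are printed with the motif in capitals, 5′ to 3′ on the strand of the gene, so that TTGCATCA is the motif read on the opposite strand.
CARS1, chr11:3057407-3057436, minus strand: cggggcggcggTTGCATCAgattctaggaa
GARS1, chr7:30594834-30594863, plus strand: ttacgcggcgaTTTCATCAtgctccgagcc
AARS1, chr16:70289675-70289704, minus strand: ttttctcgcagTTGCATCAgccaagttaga
TARS1, chr5:33440956-33440985, plus strand: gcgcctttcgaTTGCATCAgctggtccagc
IARS1, chr9:92293692-92293721, minus strand: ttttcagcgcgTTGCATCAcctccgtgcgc
NARS1, chr18:57621804-57621833, minus strand: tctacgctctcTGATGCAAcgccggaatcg
YARS2, chr12:32756076-32756105, minus strand: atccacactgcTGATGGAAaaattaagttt
The motif began 2 bases before the start site in CARS1, 13 before it in IARS1, 33 in GARS1, 187 in AARS1 and 197 in YARS2. In TARS1 and NARS1 it began at bases 3 and 15 of the transcript. MARS1 was the seventh cytosolic gene with the motif. SARS1, whose level rose with both EerI and CBU-028, had a promoter entry without it. A match describes the letters of the window and does not show that a factor binds there.

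With EerI, 4 of the 15 cytosolic synthetase genes and GARS1 rose, and no mitochondrial gene was called. The largest rise was that of CARS1, the cysteine enzyme, at 1.07 (95% interval 0.89 to 1.24). SARS1 for serine rose by 0.57, YARS1 for tyrosine by 0.57, AARS1 for alanine by 0.53 and the dual glycine gene GARS1 by 0.74 on the log2 scale. Over all genes, limma called 0.506% higher and 0.263% lower with EerI. No cytosolic gene was called lower. Without adjustment, limma gave a p under 0.05 for 10 cytosolic genes, all of them higher. The 6 further genes among those 10 were TARS1, NARS1, WARS1, EPRS1, IARS1 and LARS1, with log2 fold changes of 0.30 to 0.47 and adjusted p from 0.0644 to 0.256. Of the mitochondrial genes, limma gave an unadjusted p under 0.05 for 1, YARS2, at -0.28 (adjusted p = 0.3), and the ANOVA that the methods name gave 1 higher and 1 lower, unadjusted. The median log2 fold change was 0.38 for the cytosolic genes, -0.0012 for the mitochondrial genes and -0.0016 for all genes. The count with EerI rests on all 4 arrays compared. Without any single control or EerI array, 1 cytosolic gene, CARS1, was still called, with the log2 fold changes of the other 3 between 0.49 and 0.59.

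With CBU-028, 9 of the 15 cytosolic genes and GARS1 rose, VARS1 fell, and no mitochondrial gene was called in either direction. CARS1 again rose most, by 1.16 (95% interval 0.99 to 1.33). It was followed among cytosolic genes by TARS1 for threonine (0.62), YARS1 (0.60), SARS1 (0.57), AARS1 (0.52), WARS1 for tryptophan (0.47), NARS1 for asparagine (0.44), LARS1 for leucine (0.34) and EPRS1, which joins glutamate and proline (0.33). GARS1 rose by 0.82 and VARS1, the valine enzyme, fell by 0.33 on the log2 scale (limma adjusted p = 0.044). The share called over all genes was 5.49% higher and 7.1% lower. Without adjustment limma gave a p under 0.05 for 1 mitochondrial gene, IARS2 at -0.26, and the ANOVA for 3, 2 of them higher. Dimmer probe sets of WARS2 (0.32) and CARS2 (-0.42, at a mean level of 5.13) did pass the adjusted threshold with CBU-028. The medians were 0.34 for cytosolic and 0.0094 for mitochondrial genes, beside -0.0099 for all genes. Leaving out control replicate 1 or 2 left 4 or 5 of the cytosolic rises. The call of VARS1 was lost without any 1 of 7 arrays (the exception being CBU-028 replicate 2), with a replicate block and after repeated quantile normalization.

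With 5-NA, 2 of the 15 cytosolic genes were higher and 1 was lower, and 5 of the 15 mitochondrial genes were lower. CARS1 rose by 0.64 (95% interval 0.47 to 0.81) and TARS1 by 0.43. FARSA, the catalytic subunit of the phenylalanine enzyme, fell by 0.69 on the log2 scale (interval -0.92 to -0.45, limma adjusted p = 0.00321). The mitochondrial genes that fell were EARS2 for glutamate, by 0.77, IARS2 for isoleucine, by 0.57, SARS2, by 0.37, NARS2, by 0.36, and HARS2 for histidine, by 0.29. Over all genes, 7.87% were called higher and 10.9% lower. No mitochondrial gene was higher, at an unadjusted p under 0.05 by limma or by the methods' ANOVA, and 14 of the 15 had a log2 fold change under 0, the exception being RARS2 at 0.14. GARS1 was at 0.31 (limma adjusted p = 0.069) and KARS1, the dual lysine gene, at -0.05. The medians were -0.0029 for cytosolic and -0.20 for mitochondrial genes, beside -0.027 for all genes. 5-NA replicate 2, the array with the highest ACTB difference, had a mitochondrial median of -0.28 against the control mean and 5-NA replicate 1 of -0.16. Without replicate 2, 2 mitochondrial genes were called lower, without replicate 1 it was 3, and 2 without either control array and 3 without either EerI array. The part of RNA quality and of the rRNA signal in these falls was not tested.

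**Figure D1:**
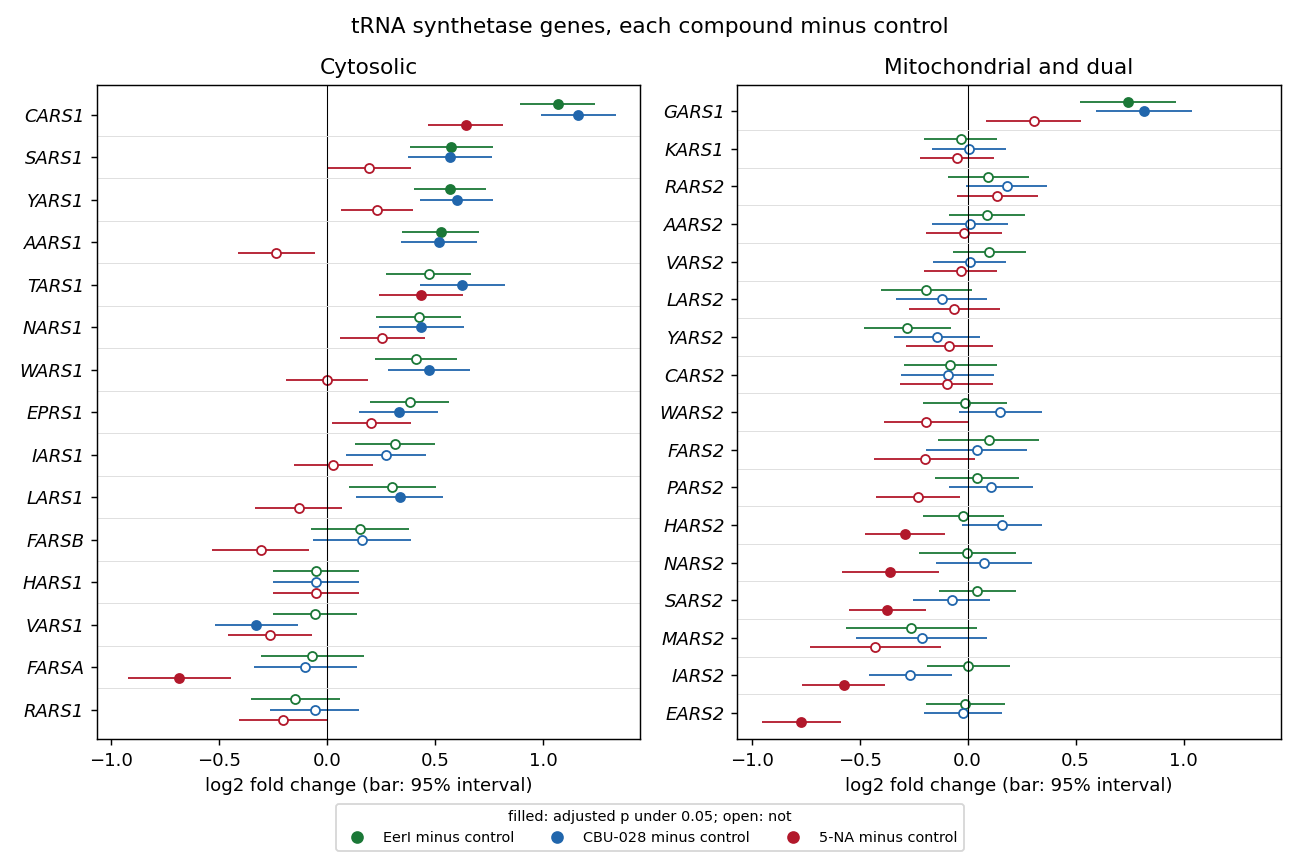
Log2 fold change of 32 tRNA synthetase genes for each compound minus control, with cytosolic genes on the left and mitochondrial and dual genes on the right; points are estimates from limma, bars are 95% intervals and filled points have an adjusted p under 0.05. EerI and CBU-028 points lie close together and to the right for CARS1, SARS1, YARS1 and AARS1, while 5-NA points lie to the left for FARSA, IARS2 and EARS2.

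The levels on the single arrays show how far the groups stood apart. CARS1 read 11.34 and 11.28 on the control arrays, 12.39 and 12.36 with EerI, 12.50 and 12.44 with CBU-028, and 11.95 on both 5-NA arrays. No control array overlapped a treated one, and 5-NA lay between control and the other compounds. All 3 further CARS1 probe sets also rose with CBU-028, by 0.57 to 1.21, though the dimmest was at 0.38 with EerI and was not called there. Its mitochondrial counterpart CARS2 read 11.37 and 11.35 in control, 11.30 and 11.26 with EerI, 11.15 and 11.39 with CBU-028, and 11.23 and 11.30 with 5-NA. The spread of CARS2 between the CBU-028 duplicates exceeded the difference of their mean from control.

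GARS1 read 12.67 and 12.69 in control, 13.44 and 13.40 with EerI, 13.63 and 13.37 with CBU-028, and 13.02 and 12.95 with 5-NA. All treated arrays were above both controls, and those of 5-NA were below those of EerI and CBU-028. SARS1 read 12.57 and 12.53 in control, 13.14 and 13.11 with EerI, 13.18 and 13.06 with CBU-028, and 12.82 and 12.68 with 5-NA. A second SARS1 probe set, dimmer, gave larger rises of 1.26 with EerI and 1.21 with CBU-028, and 0.04 with 5-NA, so its direction was the same and its size was not. SARS2 read 10.16 and 10.18 in control, 10.27 and 10.17 with EerI, 10.10 and 10.11 with CBU-028, and 9.83 and 9.77 with 5-NA. SARS1 was called with EerI and CBU-028, and SARS2 with 5-NA.

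YARS1 read 12.69 and 12.66 in control, 13.24 and 13.25 with EerI, 13.28 and 13.27 with CBU-028, and 12.91 and 12.90 with 5-NA. Its duplicates differed by at most 0.03, and the 5-NA difference of 0.23 did not pass (limma adjusted p = 0.0699), although its second probe set rose by 0.54 with 5-NA. YARS2 read 11.37 and 11.44 in control, 11.05 and 11.20 with EerI, 11.32 and 11.20 with CBU-028, and 11.29 and 11.35 with 5-NA. All YARS2 levels with a compound were below both controls, in a gene that no comparison with control called. TARS1 read 11.99 and 11.98 in control, 12.46 on both EerI arrays, 12.71 and 12.52 with CBU-028, and 12.41 and 12.43 with 5-NA. It rose by like amounts with EerI (0.47, limma adjusted p = 0.0644) and 5-NA (0.43, limma adjusted p = 0.0101), on different sides of the threshold, and the call with 5-NA was lost without either control array or without 5-NA replicate 2.

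AARS1 stood on opposite sides of control. It read 10.79 and 10.85 in control, 11.31 and 11.38 with EerI, 11.32 and 11.36 with CBU-028, and 10.55 and 10.62 with 5-NA. The 5-NA arrays lay below both controls, by 0.24 (limma adjusted p = 0.0783), and the other treated arrays lay above them. Its counterpart AARS2 stayed between 9.74 and 9.89 on all 8 arrays.

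FARSA read 12.32 and 12.35 in control, 12.22 and 12.31 with EerI, 12.34 and 12.13 with CBU-028, and 11.76 and 11.54 with 5-NA. Only the 5-NA arrays stood clear of the controls by more than the spread of their duplicates, and a second FARSA probe set fell by 0.43 on the log2 scale with 5-NA. FARSB, the other subunit of the same enzyme, was at -0.31 (limma adjusted p = 0.0717). FARS2, the mitochondrial phenylalanine enzyme, read 9.64 and 9.65 in control, 9.76 and 9.72 with EerI, 9.82 and 9.56 with CBU-028, and 9.52 and 9.37 with 5-NA. Its difference of -0.20 with 5-NA did not pass. Of the further probe sets with a mean level of at least 7 that belong to called genes, 4 of 4 had the same sign with EerI. It was 10 of 11 with CBU-028, the exception being 1 of LARS1 at -0.01, and 5 of 5 with 5-NA. Called in the same direction were 4 with EerI, 5 with CBU-028 and 4 with 5-NA, and none was called the other way. With CBU-028, no further probe set of LARS1, EPRS1 or VARS1 was called.

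EARS2 read 9.59 and 9.55 in control, 9.57 and 9.54 with EerI, 9.61 and 9.48 with CBU-028, and 8.78 and 8.82 with 5-NA. Control, EerI and CBU-028 overlapped, and both 5-NA arrays were lower. Of its 3 further probe sets, those with mean levels of 8.26 and 9.27 also fell, by 0.81 and 0.32 on the log2 scale, and the dimmest, at a mean of 5.95, was at 0.09. EPRS1, which charges glutamate in the cytosol, read 11.73 and 11.68 in control, 12.08 and 12.09 with EerI, 12.07 and 12.00 with CBU-028, and 11.85 and 11.97 with 5-NA. IARS2 read 11.67 and 11.70 in control and again 11.67 and 11.70 with EerI, then 11.49 and 11.34 with CBU-028, and 11.06 and 11.16 with 5-NA. IARS1, the cytosolic isoleucine enzyme, read 13.26 and 13.28 in control, 13.57 and 13.60 with EerI, 13.54 on both CBU-028 arrays, and 13.22 and 13.37 with 5-NA. The isoleucine genes thus stood apart from control in opposite directions with CBU-028, though neither difference passed (0.27 for IARS1 and -0.26 for IARS2).

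**Figure D2:**
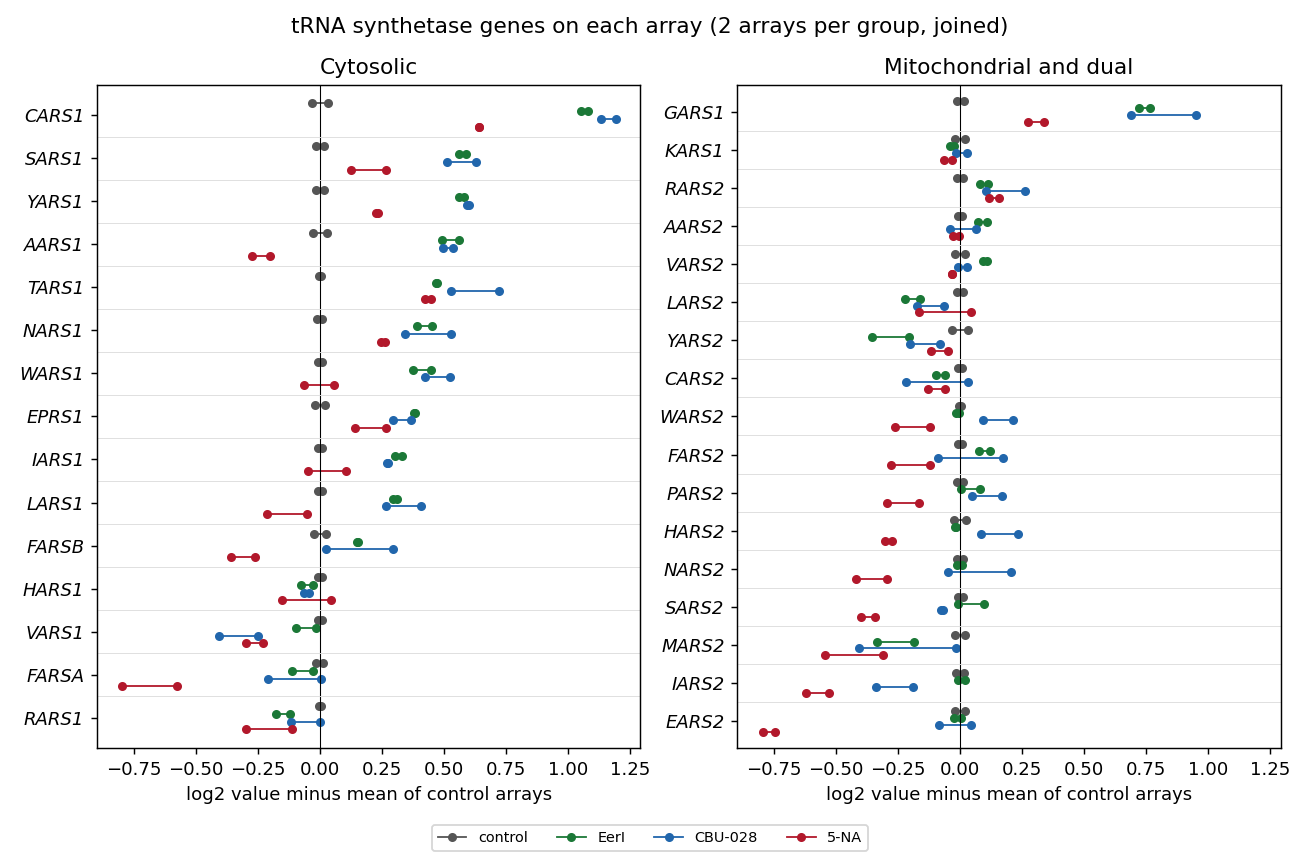
Log2 level of each tRNA synthetase gene on each of the 8 arrays, minus the mean of the 2 control arrays, with the duplicates of a group joined by a line. Duplicates of control and EerI lie close together, those of CBU-028 are often wider, and the 5-NA arrays form the left edge for most mitochondrial genes.

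For 13 pairs of a cytosolic and a mitochondrial gene for the same amino acid, the cytosolic log2 fold change was the higher in 9 pairs with EerI, 9 with CBU-028 and 7 with 5-NA. These treatments share the control arrays, and FARSA and FARSB are both paired with FARS2. The median gap was 0.42 with EerI, 0.36 with CBU-028 and 0.19 with 5-NA. Among these 13 pairs the gap was widest in the cysteine pair, at 1.15, 1.25 and 0.74. EPRS1, which joins both glutamate and proline, was not paired with EARS2 or PARS2. With 5-NA, EPRS1 was at 0.20, PARS2 at -0.23 and EARS2 at -0.77, the last a wider gap than in the cysteine pair. In the arginine, valine and FARSA pairs the mitochondrial gene had the higher value with all 3 compounds. With 5-NA the gap came from different sides: in the isoleucine pair IARS1 was at 0.03 and IARS2 at -0.57, and in the asparagine pair NARS1 was at 0.25 and NARS2 at -0.36.

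**Figure D3:**
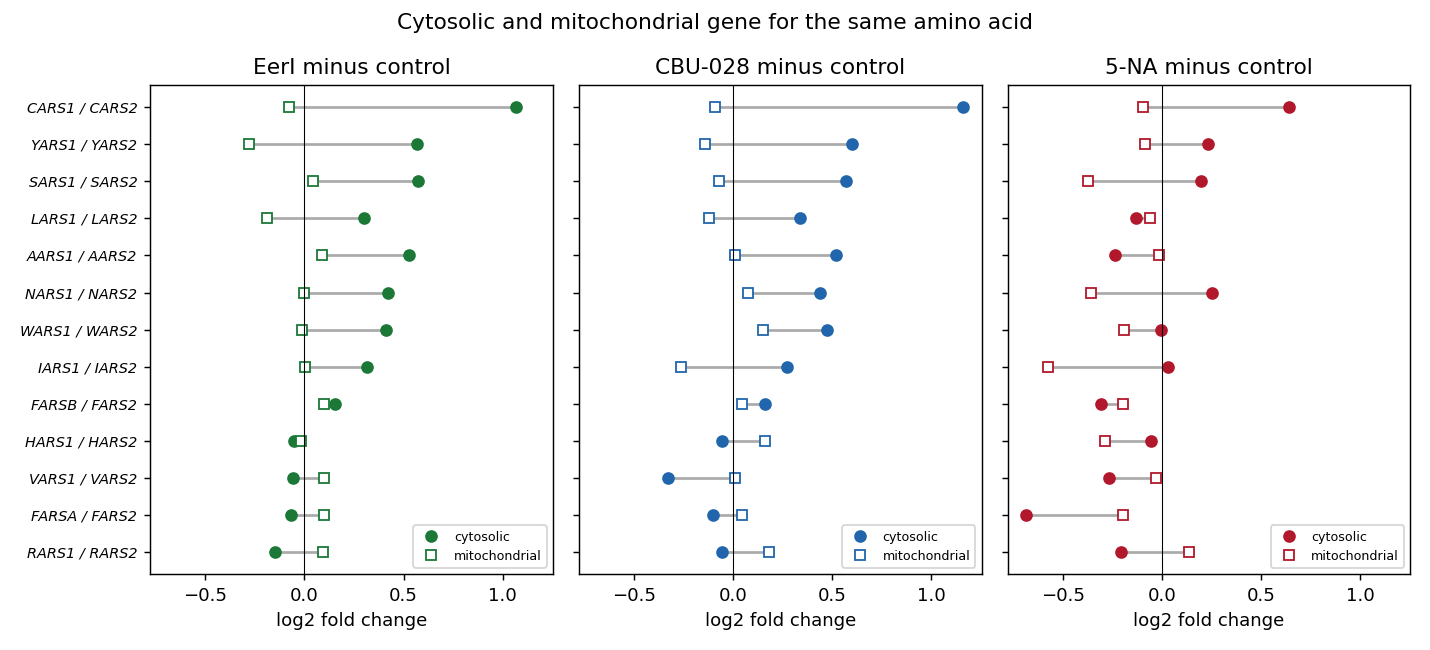
Log2 fold change against control of the cytosolic (circle) and the mitochondrial (square) gene for the same amino acid, 13 pairs, a panel per compound, ordered by the gap with EerI. The circles lie to the right of the squares for the upper rows with EerI and CBU-028, and with 5-NA the squares of IARS2, SARS2 and NARS2 lie farthest to the left among the mitochondrial genes shown.

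The compounds were then set against each other at the same dose and time. Between CBU-028 and EerI, none of the 32 genes passed the test, where 1.6% of all genes were called higher and 2.13% lower. Without adjustment, limma gave a p under 0.05 for 1 cytosolic gene, VARS1 at -0.27, and 1 mitochondrial gene, IARS2 at -0.27, both lower with CBU-028, and the ANOVA gave 2 and 3. The 95% intervals of the differences lay between -0.46, for VARS1 and IARS2, and 0.36, for HARS2 and WARS2. For CARS1 the difference was 0.09 (interval -0.08 to 0.27), for GARS1 0.07 (-0.15 to 0.30) and for AARS1 -0.01 (-0.19 to 0.17).

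5-NA, which is the nitrofuran-containing part of EerI without the aromatic domain, differed from EerI in 9 cytosolic genes, 4 mitochondrial genes and GARS1, all lower with 5-NA. Over all genes, 7.93% were called higher and 9.66% lower in this comparison. AARS1 differed most, by -0.76 (95% interval -0.94 to -0.58, limma adjusted p = 0.000686). It was followed by FARSA at -0.62, FARSB at -0.46, LARS1 at -0.43, CARS1 at -0.43, WARS1 at -0.41, SARS1 at -0.38, YARS1 at -0.34 and IARS1 at -0.29. The mitochondrial genes were EARS2 at -0.76, IARS2 at -0.58, SARS2 at -0.42 and NARS2 at -0.36, and GARS1 was at -0.44. TARS1 differed by -0.04 (interval -0.23 to 0.16) and HARS1, the cytosolic histidine enzyme, by -0.0021 (interval -0.20 to 0.20), neither past the test. All 15 cytosolic genes had a lower mean with 5-NA than with EerI, with a median difference of -0.34, beside -0.18 for the mitochondrial genes (-0.28 without 5-NA replicate 1) and -0.03 for all genes. The cytosolic count was 2 without EerI replicate 1, 1 without EerI replicate 2 and 3 without 5-NA replicate 2, and the mitochondrial count was 7 without either CBU-028 array and 2 without EerI replicate 1 or 5-NA replicate 2.

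5-NA differed from CBU-028 in 8 cytosolic genes, 6 mitochondrial genes and GARS1, again all lower with 5-NA, where the shares over all genes were 6.47% higher and 7.33% lower. AARS1 was at -0.75, FARSA at -0.58, CARS1 at -0.52, WARS1 at -0.48, FARSB at -0.47, LARS1 at -0.47, SARS1 at -0.37 and YARS1 at -0.37. The mitochondrial genes were EARS2 at -0.75, HARS2 at -0.45, NARS2 at -0.43, WARS2 at -0.34, PARS2 for proline at -0.34 and SARS2 at -0.30, and GARS1 was at -0.51. The cytosolic count was 2 without 5-NA replicate 2. The mitochondrial count was 1 without that array and 2 without either control array, either EerI array, CBU-028 replicate 1 or 5-NA replicate 1.

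**Figure D4:**
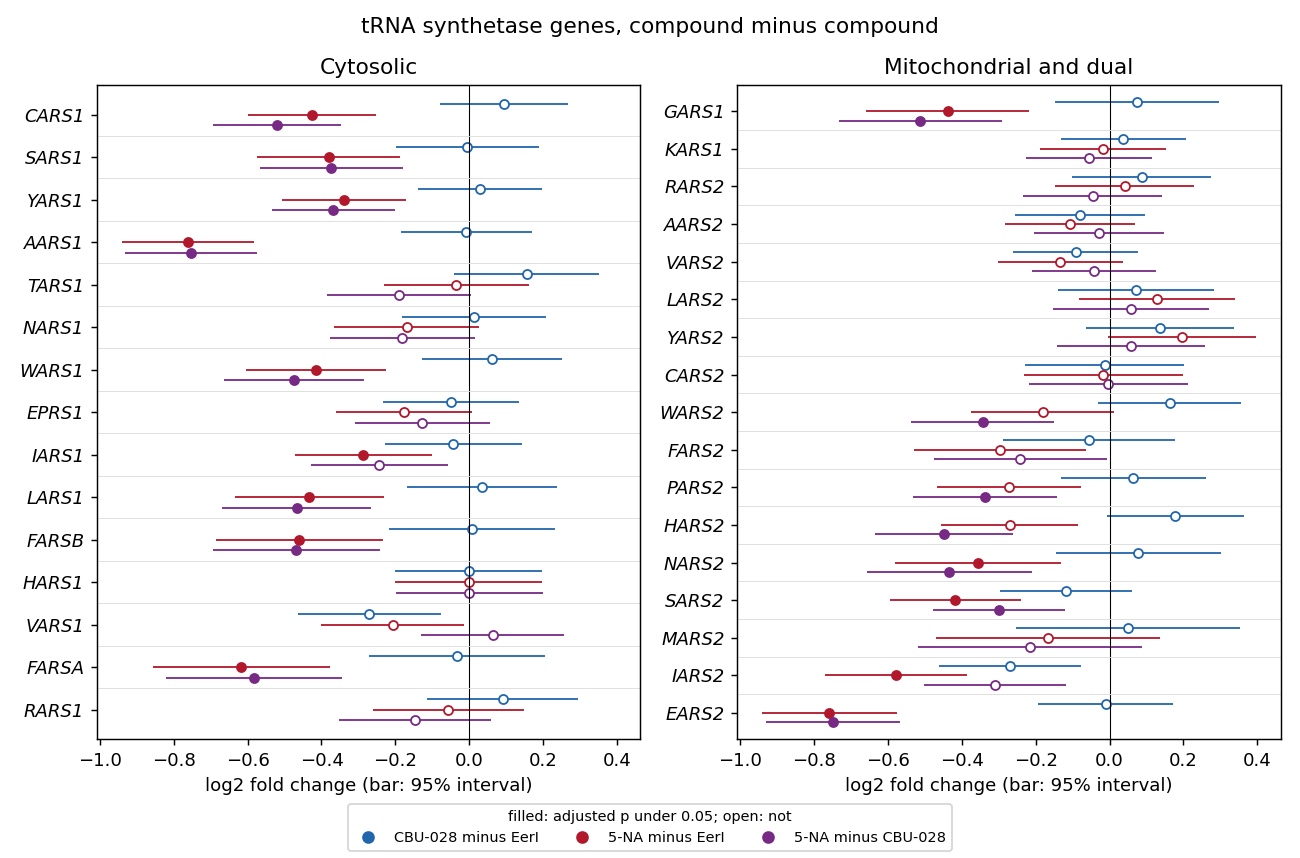
Log2 difference between compounds for 32 tRNA synthetase genes, with cytosolic genes on the left and mitochondrial and dual genes on the right; points are estimates from limma, bars are 95% intervals and filled points have an adjusted p under 0.05. The CBU-028 minus EerI points are all open and lie between -0.27 and 0.18, while filled points of both 5-NA comparisons lie to the left of 0.

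Synthetases fall into 2 classes by the fold of their catalytic domain, and some cytosolic ones are held in a multi-synthetase complex. With EerI, 2 of 7 measured cytosolic class I genes and 2 of 7 class II genes were higher, with medians of 0.31 and 0.42. With CBU-028 these counts were 4 and 4, with 1 class I gene lower. EPRS1, which holds a domain of each class, was counted in neither. Of the falls with 5-NA, 2 were among 9 mitochondrial class I genes and 3 among 6 class II genes. The shares over all genes were 0.506% higher with EerI, 5.49% higher and 7.1% lower with CBU-028, and 10.9% lower with 5-NA. Of the 4 measured genes of the complex that are cytosolic only, EPRS1, IARS1, LARS1 and RARS1, limma called none higher with EerI (3 at an unadjusted p under 0.05) and 2 with CBU-028, and of the 11 outside it, 4 and 7. The medians were 0.31 and 0.42 with EerI and 0.30 and 0.47 with CBU-028, and the difference was not tested. KARS1, a dual member of the complex, lay between 13.56 and 13.65 on all arrays, and RARS1 and HARS1 did not pass in any comparison.

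Among the cytosolic and dual genes with a value and a promoter entry, 6 had the motif and 8 did not, and YARS1, LARS1 and VARS1, which have no entry here, are in neither count. With EerI, 3 of the 6 and 1 of the 8 were called higher, with medians of 0.50 and 0.06. With CBU-028 it was 5 and 3, with medians of 0.57 and 0.08. With 5-NA it was 2 and 0, with medians of 0.28 and -0.05, and 1 gene without the motif, FARSA, was lower. Beside these counts, limma called 0.506% of all genes higher with EerI, 5.49% with CBU-028 and 7.87% with 5-NA, and 10.9% lower with 5-NA. The share called among other genes with the motif was not counted, and the difference by motif was not tested. AARS1 had the motif and was at -0.24 with 5-NA. SARS1, WARS1 and EPRS1 lacked it in this window and rose with CBU-028, and SARS1 rose with EerI as well. YARS2, the mitochondrial gene with the motif, was not called with any compound.

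The other genes of charging and of the response to uncharged tRNA came from fixed lists. Of 6 genes of that response, ATF4, its stress target DDIT3, the asparagine synthetase ASNS and the pseudokinase TRIB3 were higher with all 3 compounds. The shares called higher over all genes were 0.506%, 5.49% and 7.87% with EerI, CBU-028 and 5-NA. PERK also leads to ATF4, so these rises do not show which kinase was active, and charging of tRNA was not measured. ATF4 rose by 0.78 with EerI, 0.64 with CBU-028 and 0.48 with 5-NA, and ASNS by 1.39, 1.42 and 0.78. DDIT3 rose by 1.82, 2.36 and 1.55, and TRIB3 by 0.91, 1.93 and 0.87. DDIT3 and TRIB3 were also called higher with CBU-028 than with EerI, by 0.54 and 1.02, while no synthetase gene passed in that comparison. EIF2AK4, which encodes the uncharged tRNA sensor GCN2, fell by 0.69 on the log2 scale with 5-NA, and its partner GCN1 fell by 0.38 with CBU-028. EIF2AK4 also read lower with CBU-028, at 8.88 and 9.06 against 9.36 and 9.28 in control. That difference had an unadjusted p under 0.05 by limma but was not called. These comparisons share their control arrays.

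Of 4 mitochondrial charging partners, QRSL1, a subunit of the amidotransferase that makes glutaminyl-tRNA from the product of EARS2, rose by 0.46 with CBU-028 and was at -0.19 with 5-NA, a difference of -0.66 between these compounds (limma adjusted p = 0.0106). MTFMT, which formylates the initiator methionyl-tRNA, fell by 0.48 on the log2 scale with 5-NA. The other 2, GATB and GATC, were called in no comparison with control, and GATC was lower with 5-NA than with CBU-028, by -0.42, though its second probe set, at a mean level of 10.34, differed by 0.06 and was not called. The complex scaffold AIMP1 did not pass, at -0.02, 0.06 and -0.20 with EerI, CBU-028 and 5-NA. The elongation factors that carry charged tRNA to the ribosome or move it on, measured for 3 cytosolic and 3 mitochondrial genes, were not called in any comparison with control by limma, taking the brightest probe set of each, and lay between -0.21 and 0.10. Other probe sets of EEF1A1 (0.40, at a mean level of 10.03) and TSFM (-0.40, at 8.93) were called with 5-NA. Unadjusted, 1 mitochondrial factor was lower with CBU-028 and 2 with 5-NA.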

How the data were processed

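RNA of 293T cells was hybridized to 8 Affymetrix arrays, 2 per group, grouped by the sample labels. The authors made the deposited log2 values by RMA: background correction, quantile normalization between arrays and a summary per probe set. The labels also name Partek. Versions are not given in the sources used here. RMA compresses small differences and removes any global shift of expression. The probe set identifiers belong to HG-U133 Plus 2.0, although the methods give another design of that family. Of 54675 probe sets, 41097 had a single symbol, 1801 several and 11777 none in the platform annotation. Genes were named from the first kind alone.

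limma 3.58.1 in R 4.3.3 estimated the 4 group means from all arrays together (residual degrees of freedom 4, prior 5.08) and tested differences two-sided, with Benjamini-Hochberg adjustment over all probe sets of each of 6 comparisons. The median SE of a log2 fold change was 0.099, and the number of arrays limits the precision. Same-numbered duplicates did not deviate together (correlations from -0.146 to 0.146). The gene list, the other lists and the tests were chosen with earlier results of these data known. Values on every array are given for genes called with a log2 fold change of at least 0.5 in size against control, and for their counterparts. Promoters came from RefSeq. Alternatives were the ANOVA of the methods, fold thresholds of 1.5 and 2, a floor at a log2 value of 7, other normalizations, fits, probe sets and adjustments, and leaving out each array. Python 3.11.15 with matplotlib 3.10.9 drew the figures.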

Additional observations from a re-analysis of the deposited data

How the results depend on the processing

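For single genes, the alternatives were run on 16 changes against control, those of AARS1, CARS1, FARSA, GARS1, SARS1, TARS1, YARS1, EARS2 and IARS2, and none of the 16 reversed. CARS1 with each compound and EARS2, IARS2 and FARSA with 5-NA kept their calls without any single array. Counts were less stable. Leaving out each array gave 1 to 6 cytosolic genes higher with EerI, 4 to 9 higher and 0 to 1 lower with CBU-028, 1 to 4 higher and 1 to 3 lower with 5-NA, and 2 to 6 mitochondrial genes lower with 5-NA. Between compounds it gave 1 to 9 cytosolic and 2 to 7 mitochondrial genes for 5-NA against EerI, and 2 to 8 and 1 to 7 for 5-NA against CBU-028. The lone duplicate was assumed to vary like the other groups. AARS1 with EerI lost its call without 6 of the 8 arrays, GARS1, SARS1 and YARS1 with EerI without 4, TARS1 with 5-NA without 3, and AARS1 with CBU-028 without control replicate 1.

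With the methods' ANOVA unadjusted, EerI gave 10 cytosolic genes higher and 1 mitochondrial gene in each direction, CBU-028 2 mitochondrial genes higher and 1 lower, and 5-NA 6 cytosolic genes higher and 4 lower. The same test gave 7 mitochondrial genes for 5-NA against EerI, and 2 cytosolic and 3 mitochondrial for CBU-028 against EerI. Adjusted, it gave 2 cytosolic genes higher with EerI, 0 lower with CBU-028, 3 mitochondrial genes lower with 5-NA, 4 cytosolic for 5-NA against EerI, and 4 cytosolic and 3 mitochondrial for 5-NA against CBU-028. At 1.5-fold, 1, 3 and 1 cytosolic genes were higher with EerI, CBU-028 and 5-NA, 0 lower with CBU-028 and 1 mitochondrial gene lower with 5-NA; 2 cytosolic and 1 mitochondrial differed between 5-NA and EerI, and 1 and 1 between 5-NA and CBU-028. At 2-fold, CARS1 alone was left, with EerI (1) and CBU-028 (1), and the other counts were 0. With a floor at a mean of 7 the counts were 8 cytosolic higher with EerI, 1 mitochondrial lower with CBU-028, 4 cytosolic higher and 4 lower with 5-NA, and 7 mitochondrial for 5-NA against EerI. With a trend in the prior variance they were 9, 1, 6 and 4, with 1 cytosolic and 1 mitochondrial gene for CBU-028 against EerI. Adjusting over the 6 comparisons together gave 9 cytosolic higher with EerI and 3 mitochondrial lower with 5-NA. In fits of the compared groups alone, 0 cytosolic genes were lower with CBU-028, 2 were lower with 5-NA, and 2 cytosolic and 1 mitochondrial differed between 5-NA and CBU-028. The cause of these shifts was not tested.

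With a replicate block the count of cytosolic genes lower with CBU-028 went from 1 to 0, as it did after repeated quantile normalization, so that VARS1 lost its call. None of the 16 changes listed above lost its call under the block. The duplicates share only a number, and crossing the numbers of the EerI arrays, an alternative chosen after seeing the data, gave the same 0. Median centring, probe sets not ending in _s_at or _x_at, and probe sets that also carry a microRNA symbol (chosen after seeing the data) moved no count.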
